A study of Mus musculus with 24 samples.

Results

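The NRF2 antioxidant genes are 10 named genes of the cell's main defence against oxidants, and their promoters were followed here through the acetyl mark on lysine 9 of histone H3 (H3K9ac), which lies at the start of active genes. NRF2 is a transcription factor, encoded by Nfe2l2, that KEAP1 holds in the cytoplasm and hands over for degradation. Oxidants and electrophiles modify KEAP1, NRF2 then builds up, pairs with small MAF proteins and binds antioxidant response elements near genes for glutathione synthesis, thioredoxin recycling, haem breakdown and quinone detoxification. Tumour cells commonly use this programme to withstand oxidative stress. The members were the sensor pair Nfe2l2 and Keap1, the glutathione genes Gclc, Gclm and Slc7a11, the thioredoxin system genes Txnrd1 and Srxn1, and the detoxifying genes Hmox1, Nqo1 and Sod2. They are 10 of 21755 protein-coding genes on chromosomes 1 to 19 and X (GENCODE vM21, mm10 build).

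The data were lists of H3K9ac peaks from 12 chromatin immunoprecipitation libraries. The cells were 4T1, a line from a mouse mammary carcinoma, and had grown as spheroids for 5 days. There were 4 groups of 3 libraries. The scramble, CPT1a knockout and KAT2a knockout groups had 75 µM palmitate in their medium. The fourth group was the CPT1a knockout with 5 mM acetate, and the sample labels do not say whether it received palmitate as well. All lines carried doxycycline-inducible Cas9 and a guide RNA, and the scramble control carried a guide against EGFP, which mouse cells lack. The lines were stable and selected with puromycin. CPT1a brings long-chain fatty acids into mitochondria, where they are burned to acetyl-CoA, acetate is another source of acetyl-CoA, and KAT2a is an acetyltransferase that writes H3K9ac. The design asks how promoter acetylation moves when the fatty acid route or the enzyme is removed, and when acetate is given. The peak lists cannot show whether the targeted genes were lost, so the group names are those of the labels. The labels do not say whether the 3 libraries of a group were separate cultures, so p-values measure the spread between these libraries only.

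Each library held 16201 to 34330 peaks, with 29153 to 34330 in the scramble libraries and 16201 to 24594 in the others. Read depth is not given in the lists, and the genome background that the peak caller worked with, recovered from each peak's fold enrichment and p-value, was 1.87 to 2.52 piled-up reads in the scramble libraries and 0.554 to 1.91 in the others. Promoters of the 6 epithelial marker genes (such as Krt8, Epcam and Cdh1) carried a peak in all 12 libraries, and 6 of the 7 markers of other cell types carried none. The exception was Sftpc, a surfactant gene of alveolar cells, with a peak in 4 libraries.

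Every member had an H3K9ac peak within 1 kb of a transcription start site (TSS) in all 12 libraries, which held for 10777 of the 21755 genes (49.5%). For each of these 10777 genes the strongest promoter peak was ranked by its fold enrichment over background within its library, and the rank was written as a percentile, with 100 for the strongest promoter of the library. A percentile sets a promoter against the other promoters of the same library and is not an absolute amount of acetylation. The libraries differed in fold enrichment itself, of which the median fold enrichment over the 10777 promoters was 18.7 to 19.4 in the scramble libraries and 18.5 to 31.4 in the others.

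The element that NRF2 reads gives the sequence background of these promoters. Its core, TGACNNNGC on either strand, lay in the 1 kb upstream of the reference TSS of 5 of the 10 members, and in that of 29.2% of all 21755 genes. The match nearest the TSS is printed for each, 5′ to 3′ on the strand of the match with the core in capitals, to show how the copies differ around the shared letters.
Nfe2l2: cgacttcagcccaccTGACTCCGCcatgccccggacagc
Gclm: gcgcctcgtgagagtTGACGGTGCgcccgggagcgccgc
Txnrd1: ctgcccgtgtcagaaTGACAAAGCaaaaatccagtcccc
Slc7a11: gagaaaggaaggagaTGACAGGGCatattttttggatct
Sod2: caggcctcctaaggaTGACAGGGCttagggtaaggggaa
These runs lie at chr2:75704880-75704918 (minus strand), chr3:122245408-122245446 (minus), chr10:82859099-82859137 (minus), chr3:50444461-50444499 (plus) and chr17:13007122-13007160 (minus), and none of the cores overlapped an annotated exon of its member. The Nfe2l2 core, 262 to 254 bp upstream of the TSS, was inside a called peak in 12 of 12 libraries and the Txnrd1 core, 65 to 57 bp upstream, in 10. The cores of Gclm and Slc7a11 were inside a peak in 1 library each, and that of Sod2 in 0. Keap1, Hmox1, Nqo1, Gclc and Srxn1 had no such letters in this window.

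Further upstream, full copies of the element lay inside an acetylated region of Gclc and beside one of Hmox1. Regions outside the promoter windows that were called in at least 9 libraries were found at Nfe2l2, Hmox1 and Gclc, and were searched, with 100 bp on each side, for the full letters TGACTCAGC. This string also contains TGACTCA, the site of AP-1 factors. The matches are shown because they lie in or beside the called distal regions of the 2 genes. This search and the choice of regions were made after the peak lists had been seen.
Gclc: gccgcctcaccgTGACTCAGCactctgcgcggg
Hmox1: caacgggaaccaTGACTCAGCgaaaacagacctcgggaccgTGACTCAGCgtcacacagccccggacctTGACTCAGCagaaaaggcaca
The Gclc copy, at chr9:77750733-77750765 (minus strand), lay 3790 to 3782 bp upstream of the TSS. It sat in a region 5774 to 2513 bp upstream (chr9:77748761-77752022) that was called in all 12 libraries, and it was inside a called peak in 8 of them. The 3 Hmox1 copies, at chr8:75083937-75084026 (minus strand), lay 9672 to 9607 bp upstream, and began 28 bp past the edge of a region at chr8:75083416-75083921 that was called in 9 of 12 libraries. They were inside a called peak in 0 libraries. Distal regions called in at least 9 libraries and within 25% of the same length were searched alike, with 100 bp on each side. The string was found for 11.4% at the length of the Gclc region (77 of 678) and 0.913% at that of the Hmox1 region (2 of 219). The regions of the members were not taken out of these counts. The distal region of Nfe2l2, 17642 to 19025 bp downstream of the TSS within the gene, was called in 12 libraries and held none.

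The 10 promoters spanned nearly the whole scale of acetylation. Over the 12 libraries the mean rank percentile was 88.7 ± 15.7 (SD) for Keap1, 86.3 ± 21.3 for Nfe2l2 and 78.5 ± 16.1 for Txnrd1. Srxn1 (65.6 ± 15.4), Gclc (62.4 ± 24.1) and Gclm (61.7 ± 21.9) followed, and then Slc7a11 (49.0 ± 23.8) and Sod2 (45.9 ± 15.2). The inducible detoxifying genes were at the bottom, Hmox1 at 16.8 ± 4.63 and Nqo1 at 5.45 ± 3.41. Neighbours in this order overlapped in their ranges over the libraries at every step.

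**Figure D1:**
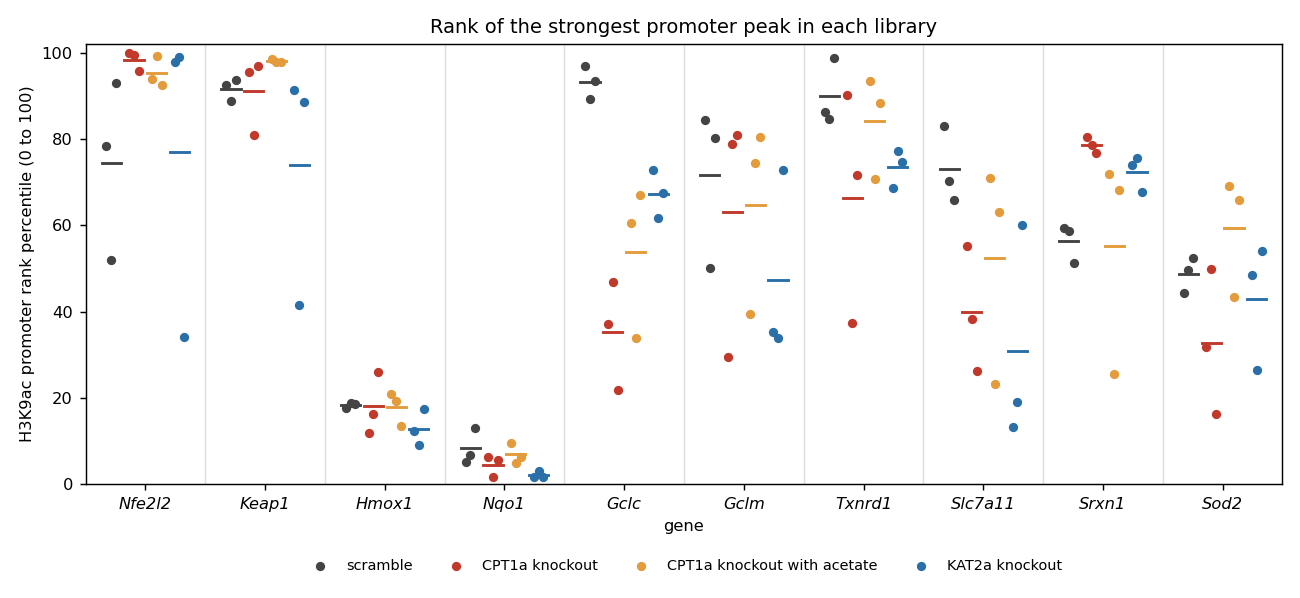
Rank percentile of the strongest H3K9ac promoter peak (vertical axis, 0 to 100 within each library) for the 10 genes, with a point for each library, coloured by group, and a bar at each group mean of 3 libraries. The Gclc points of the 3 scramble libraries (89.2 to 96.8) stand above all 9 others (21.8 to 72.7), while Hmox1 and Nqo1 stay under 27 in every library.

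Gclc encodes the catalytic subunit of glutamate-cysteine ligase, the enzyme that limits the rate of glutathione synthesis. It was the only member called in limma (adjusted p under 0.05). In the CPT1a knockout against the scramble that was 1 of 10 members, beside 9.84% of all genes. A member that did not pass cannot be called unchanged. The Gclc promoter (gene at chr9:77754535-77794485, plus strand) ranked at 96.8, 89.2 and 93.5 in the scramble libraries and at 37.1, 46.8 and 21.8 in the CPT1a knockout libraries. With acetate the CPT1a knockout libraries were at 60.4, 33.9 and 67.1, and the KAT2a knockout libraries at 72.7, 61.8 and 67.4. The scramble values did not overlap with those of any other group, and the acetate values lay between those of the CPT1a knockout and the scramble except for replicate 2, which fell inside the CPT1a knockout range.

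The fold enrichments of the Gclc promoter showed a narrower spread than its ranks. They were 30.4 to 34.1 in the scramble libraries, 12.9 to 30.5 in the CPT1a knockout, 19.3 to 29.2 with acetate and 31.2 to 36.2 in the KAT2a knockout. The fold enrichment in the KAT2a knockout thus overlapped with the scramble while the rank did not, and the median over all promoters stood at 26.2 to 30.9 in the KAT2a knockout libraries against 18.7 to 19.4 in the scramble libraries.

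In the limma fit over all 10777 genes, on normal scores (the ranks written as standard normal deviates), Gclc fell by 1.93 ± 0.291 (SE) in the CPT1a knockout against the scramble, with an adjusted p of 0.00261. That is 58.0 percentile points, lower in 3 of 3 libraries, and over the 14 alternative settings the adjusted p was 4.52e-05 to 0.0150. For the CPT1a knockout with acetate against the scramble, Gclc fell by 1.44 ± 0.291 in limma (adjusted p = 0.0149, 39.4 percentile points lower, in 3 of 3 libraries). This call was lost without scramble replicate 1 (adjusted p = 0.0744), scramble replicate 3 (0.0515) or acetate replicate 2 (0.0640), and the range over its alternatives was 0.000319 to 0.0744. For the KAT2a knockout against the scramble the limma difference was -1.08 ± 0.291, which missed the threshold of 0.05 (adjusted p = 0.0533, range over the alternatives 0.00178 to 0.180). The acetate group was 18.6 percentile points above the CPT1a knockout, and that difference did not pass the test (limma adjusted p = 0.652).

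Against all 9 other libraries together, Gclc ranked 41.1 percentile points higher in the scramble (limma adjusted p = 0.00259, range 2.37e-05 to 0.0232 over 20 alternatives), and the exact permutation test (two-sided, 220 assignments) gave p = 0.00909 before adjustment and 0.0764 after it. By that exact test 0 of all genes tested passed after adjustment. All comparisons with the scramble share the same 3 control libraries. With 3 libraries against 3, the exact test cannot give a p under 0.1, which Gclc reached in each of the comparisons with the scramble.

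The distal region upstream of Gclc that holds the TGACTCAGC copy was strong in all groups. Its highest fold enrichment was 21.9 to 24.1 in the scramble libraries, 10.9 to 26.1 in the CPT1a knockout, 16.4 to 24.4 with acetate and 13.4 to 26.2 in the KAT2a knockout, so the groups overlapped. Ranked among all peaks of its library, it stood at the 87.0 to 92.3 percentile in the scramble and at 41.3 to 75.3 in the other 9 libraries. The scramble lists are the longer ones, and the part of list length in this difference was not tested.

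**Figure D2:**
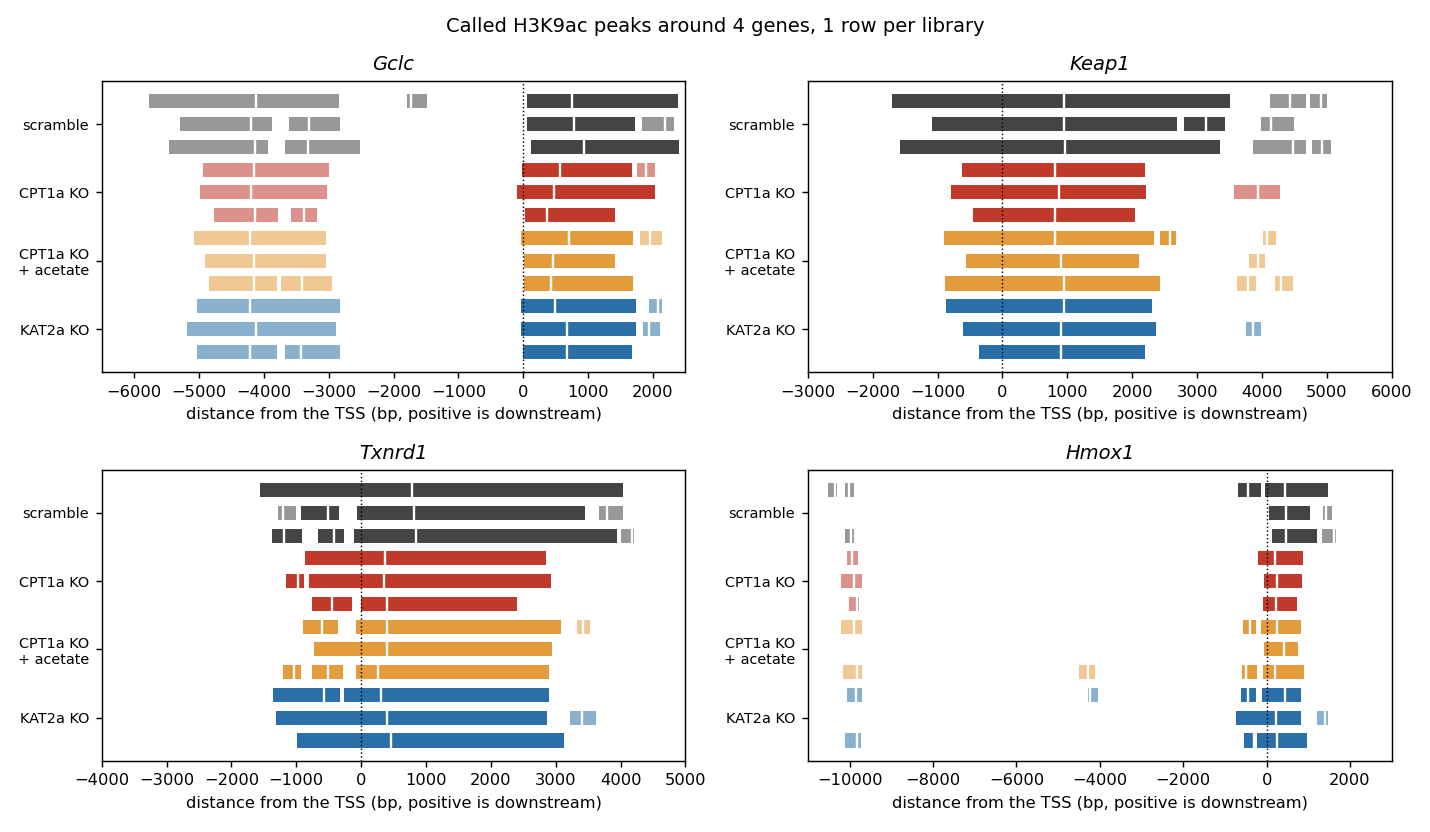
Called H3K9ac peaks around Gclc, Keap1, Txnrd1 and Hmox1, with 1 row for each of the 12 libraries, coloured by group, and the horizontal axis giving the distance from the TSS in bp. Full-colour bars are promoter peaks, pale bars are other peaks, and white marks are summits; the Gclc region 5774 to 2513 bp upstream is present in all 12 rows, and the Hmox1 region near 10 kb upstream in 9.

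Gclm encodes the partner subunit that adjusts glutamate-cysteine ligase, and its promoter (gene at chr3:122245557-122270732, plus strand) varied widely between the libraries of each group. It ranked at 84.4, 50.1 and 80.1 in the scramble libraries, at 29.5, 78.8 and 80.8 in the CPT1a knockout, at 39.4, 74.3 and 80.5 with acetate and at 35.3, 33.8 and 72.9 in the KAT2a knockout. Each group held at least 1 low library and 1 high library, and the ranges overlapped throughout. The smallest limma adjusted p over the 5 comparisons was 0.392, for the KAT2a knockout against the scramble. Ranked by -log10 p, it passed in that comparison (adjusted p = 0.0129) and in the scramble against the other 9 libraries (adjusted p = 0.0323).

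Slc7a11 encodes the cystine transporter xCT, which supplies the cysteine for glutathione. Its promoter (gene at chr3:49892526-50443614, minus strand) ranked at 82.9, 70.2 and 65.9 in the scramble libraries. The CPT1a knockout libraries stood at 55.1, 38.3 and 26.3, the acetate libraries at 71.0, 23.1 and 63.1, and the KAT2a knockout libraries at 13.3, 19.0 and 60.0. Both knockout groups without acetate lay wholly below the scramble, by 33.1 and 42.3 percentile points of the means, and the acetate group overlapped with it. These differences did not pass in limma (adjusted p = 0.157 for the CPT1a knockout and 0.0977 for the KAT2a knockout), nor did the scramble against the other 9 libraries (adjusted p = 0.0826, exact permutation p = 0.0409 before adjustment and 0.171 after it). Ranked by -log10 p, which depends on depth, Slc7a11 passed in limma in each of these comparisons. The smallest limma adjusted p over the alternatives was 0.00823, 0.00899 and 0.00533. Ranked among all peaks, it passed in the CPT1a knockout and in the scramble against the other 9 libraries, the latter also without KAT2a knockout replicate 3.

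Nfe2l2, the gene of NRF2 itself, had the most acetylated promoter of all members in several libraries. It ranked (gene at chr2:75675513-75704641, minus strand) at 99.9, 99.4 and 95.8 in the CPT1a knockout, at 94.0, 99.2 and 92.5 with acetate and at 97.9, 99.0 and 34.2 in the KAT2a knockout. The scramble libraries were at 78.4, 52.0 and 93.0. The 3 CPT1a knockout libraries were all above the scramble, with fold enrichments of 30.8 to 61.0 against 19.8 to 33.8. KAT2a knockout replicate 3 stood apart from its group, at a fold enrichment of 21.7 against 52.1 and 57.6.

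The difference between the CPT1a knockout and the scramble was 23.9 percentile points and did not pass (limma adjusted p = 0.0956, exact permutation p = 0.1). It was 12.6 points without scramble replicate 2, 9.02 with the GC trend removed, 7.27 when ranked among all peaks and 38.9 at a common calling depth. Ranked by -log10 p, which depends on depth, the difference passed (limma adjusted p = 0.000849). Against the other 9 libraries the scramble was 15.7 percentile points lower (limma adjusted p = 0.161). Without KAT2a knockout replicate 3 this last value became 22.9 percentile points, with a limma adjusted p of 0.0223. The strongest Nfe2l2 peak also covered the TSS of the divergent transcript E030042O20Rik, 129 bp upstream, in 8 libraries, and the 2 promoters cannot be told apart there.

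Keap1 encodes the sensor that targets NRF2 for degradation. Its promoter (gene at chr9:21229730-21239361, minus strand) ranked at 92.6, 88.7 and 93.6 in the scramble, at 95.5, 80.8 and 96.9 in the CPT1a knockout and at 91.4, 41.6 and 88.6 in the KAT2a knockout. The acetate libraries were at 98.5, 97.9 and 97.9, above every library of the scramble and of the CPT1a knockout. The mean difference was 7.03 percentile points against the CPT1a knockout and 6.47 against the scramble, and neither passed (limma adjusted p = 0.681 and 0.295).

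Txnrd1 encodes the cytosolic thioredoxin reductase. Its promoter (gene at chr10:82833951-82897712, plus strand) ranked at 86.1, 84.6 and 98.8 in the scramble, at 90.1, 37.4 and 71.7 in the CPT1a knockout, at 93.3, 70.8 and 88.4 with acetate and at 68.6, 77.2 and 74.7 in the KAT2a knockout. Only the KAT2a knockout did not overlap with the scramble among the 3 groups set against it, at 16.3 percentile points lower (limma adjusted p = 0.265). In 7 libraries the strongest peak also covered the start of Gm38560, a transcript of the opposite strand 171 bp upstream.

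Srxn1 encodes sulfiredoxin, which restores overoxidised peroxiredoxins. Its promoter (gene at chr2:152105516-152111376, plus strand) ranked at 59.4, 58.6 and 51.1 in the scramble libraries, at 80.4, 78.5 and 76.7 in the CPT1a knockout and at 74.0, 75.5 and 67.8 in the KAT2a knockout. The acetate libraries stood at 71.8, 25.6 and 68.3. Both knockout groups without acetate lay above the scramble, and the acetate group lay below the CPT1a knockout, yet the limma adjusted p-values were 0.189, 0.424 and 0.524.

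Hmox1, the haem oxygenase that NRF2 and its competitor BACH1 control, and Nqo1, the quinone reductase, kept low ranks in every library. Hmox1 (chr8:75093621-75100589, plus strand) ranged from 17.6 to 18.9 in the scramble, 11.9 to 26.1 in the CPT1a knockout, 13.4 to 20.9 with acetate and 9.02 to 17.4 in the KAT2a knockout. Nqo1 (chr8:107388225-107403206, minus strand) ranged from 5.14 to 13.0, 1.74 to 6.38, 4.94 to 9.55 and 1.55 to 2.97 in the same order. The KAT2a knockout libraries lay below the scramble at both genes, by 5.51 and 6.24 percentile points, and the limma adjusted p-values were 0.585 and 0.159.

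Sod2 encodes the superoxide dismutase of the mitochondrial matrix. Its promoter (gene at chr17:13006846-13040063, plus strand) ranked at 44.2, 49.5 and 52.4 in the scramble, at 31.8, 49.9 and 16.2 in the CPT1a knockout, at 69.0, 43.3 and 65.8 with acetate and at 48.5, 26.5 and 54.0 in the KAT2a knockout. The groups overlapped in every comparison. The largest difference, 26.8 percentile points higher with acetate than in the CPT1a knockout, did not pass (limma adjusted p = 0.509).

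**Figure D3:**
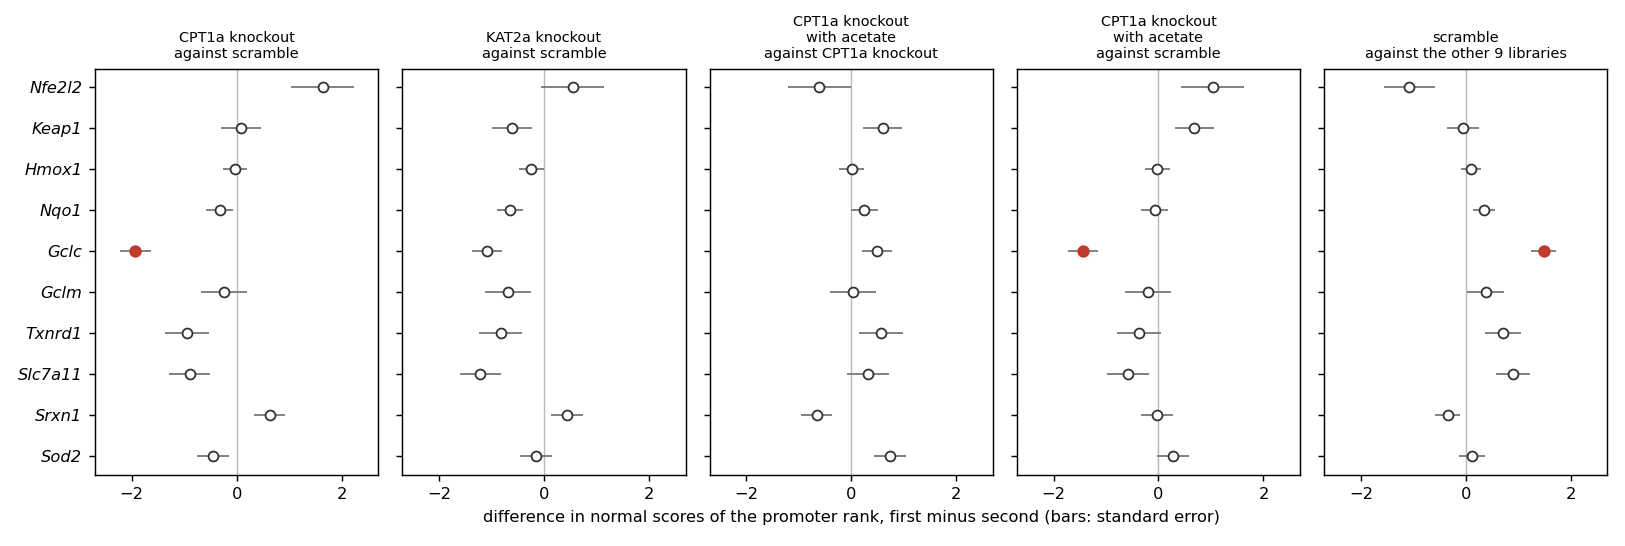
Difference between groups (horizontal axis, normal scores of the promoter rank, first group minus second) for the 10 genes in each of the 5 comparisons, with standard errors from limma; filled points have an adjusted p under 0.05. Gclc alone is filled. It stands at -1.93 for the CPT1a knockout and -1.44 for the acetate group, each minus the scramble. It stands at 1.49 for the scramble minus the other 9 libraries.

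Counted over the list, 1 of 10 members was called in the CPT1a knockout against the scramble, where 9.84% of all genes tested were called (1060 genes). For the KAT2a knockout the count was 0 of 10, with 3.68% of all genes called. An unadjusted limma p under 0.05 was found there for 3 members and 2314 of the 10777 genes. In the CPT1a knockout it was found for 4 members and 2955 genes. Acetate against no acetate in the CPT1a knockout gave 0 of 10, and 0% of all genes passed in limma. In that comparison 2 members and 1005 genes had an unadjusted p under 0.05. The acetate group against the scramble called 1 of 10 (5.33% of all genes), and the scramble against the other 9 libraries called 1 of 10 (12.9%).

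Groups that did not overlap in rank were found for 4 of 10 members in the CPT1a knockout against the scramble, namely Nfe2l2 and Srxn1 above it and Gclc and Slc7a11 below it, beside 30.9% of all genes. The KAT2a knockout did not overlap with the scramble for 6 of 10, Srxn1 above and Hmox1, Nqo1, Gclc, Txnrd1 and Slc7a11 below (29.3% of all genes). The corresponding counts were 2 of 10 for acetate against no acetate (14.2%), 2 of 10 for acetate against the scramble (31.9%) and 1 of 10 for the scramble against the other 9 libraries (12.6%).

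The median rank difference of the 10 members was -6.12 percentile points in the CPT1a knockout and -11.3 in the KAT2a knockout against the scramble, with 8 of 10 lower in each. Over all genes the medians were 0.217 and 0.104. With acetate it was 4.73 points above the CPT1a knockout and -1.24 points relative to the scramble, beside -0.481 and 0.148 over all genes. Each of these member medians was smaller than the pooled SD of the libraries' own medians, which was 9.26 to 15.4 points.

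Other genes of the pathway were read from a list of 51 genes in 7 roles, of which 48 had a promoter peak in all 12 libraries. Ephx1 had one in 8 libraries, and Pir and Sod3 in 0. In the CPT1a knockout against the scramble 1 gene of the list rose and 6 fell, beside 9.84% of all genes called in either direction. Maff, a small MAF partner of NRF2, rose from a mean rank of 15.5 to 55.6 (limma adjusted p = 0.0191). Glrx, a glutaredoxin, fell from 71.1 to 28.0 (adjusted p = 0.0149) and Mgst1, a microsomal glutathione transferase, from 29.7 to 5.01 (adjusted p = 0.0193). Txn2, Prdx1, G6pdx and Ftl1 also fell. Over 14 alternatives the call was kept in 10 for Maff (lost without scramble replicate 3 or CPT1a knockout replicate 3), in 13 for Glrx (lost without scramble replicate 1) and in 11 for Mgst1 (lost without scramble replicate 1 or 3 or CPT1a knockout replicate 2).

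In the KAT2a knockout Maff was at 57.7 (adjusted p = 0.0289), while Ftl1, the ferritin light chain, fell from 88.6 to 26.3 (adjusted p = 0.0141) and Nfe2l1, the relative of NRF2 that drives proteasome genes, from 88.9 to 62.4 (adjusted p = 0.0464). These 3 were the genes of the list that passed there, beside 3.68% of all genes. The Nfe2l1 call was kept in 5 of 14 alternatives and that of Maff in 6, both were lost on leaving out any of the 6 libraries, and Nfe2l1 also with the replicate block (adjusted p = 0.0689). The Ftl1 call was kept in 13 and lost without scramble replicate 1.

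With acetate against the scramble 1 gene passed, Prdx1, a peroxiredoxin, which fell from 73.5 to 24.0 (adjusted p = 0.0154), beside 5.33% of all genes. That call was lost without scramble replicate 1 or 3 or acetate replicate 3 and kept in the other 11 of 14 alternatives. Acetate against no acetate gave 0 in limma. In the scramble against the other 9 libraries 6 genes were higher and 2 lower, beside 12.9% of all genes called. Ftl1 (88.6 against 43.4, adjusted p = 0.00695) and Mgst1 (29.7 against 7.25, adjusted p = 0.0122) were the higher ones with the smallest p, and Maff (15.5 against 50.5, adjusted p = 0.00963) and Mafg (55.6 against 85.1, adjusted p = 0.0399), both small MAF genes, were the lower ones. Over 20 alternatives the calls were kept in 20 for Ftl1, in 18 for Mgst1 (lost without scramble replicate 1 or 3) and in 17 for Maff (lost without scramble replicate 3). The Mafg call was kept in 8, and was lost with the replicate block (adjusted p = 0.0597), on leaving out any scramble library and on leaving out 6 of the other 9. Maff lost its call in each of the 3 comparisons with the GC trend removed and when ranked among all peaks.

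By role, all 12 glutathione genes of the list were tested and 2 fell in the CPT1a knockout. So did 2 of 8 thioredoxin and peroxiredoxin genes, 1 of 6 genes of NADPH supply and 1 of 7 haem and iron genes. Of 9 regulators 1 rose and 0 fell, and 0 of 4 detoxification genes and 0 of 2 superoxide and peroxide genes were called. Over all genes 9.84% were called in either direction, and 559 of 10777 were called lower. The median difference of the 48 genes was -5.79 percentile points in the CPT1a knockout and -3.43 in the KAT2a knockout, and 5.41 with acetate against the CPT1a knockout.

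Peak width showed the clearest pattern at Keap1. The strongest Keap1 promoter peak measured 5213, 3779 and 4929 bp in the scramble libraries and 2490 to 3320 bp in the other 9, a mean of 4640 ± 759 bp (SD, n = 3) against 2921 ± 299 bp (n = 9). The groups did not overlap, and the two-sided exact permutation p was 0.00455, the smallest that 220 assignments allow (0.0209 adjusted over all genes). Keap1 was the 1 member of 10 past that threshold and the 1 member of 10 whose widths did not overlap. Over all genes 29.3% passed the same test and 24% did not overlap, so wider peaks in the scramble were common.

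The scramble had the wider mean peak at 8 of 10 members, Nfe2l2 and Nqo1 being the others, and at 75.6% of all genes. The median difference was 336 bp over the members and 398 bp over all genes, and the median promoter width of the scramble libraries was 2120 to 2886 bp against 1444 to 2429 bp. The scramble libraries also had the higher calling background given above, whose part in the widths was not tested.

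**Figure D4:**
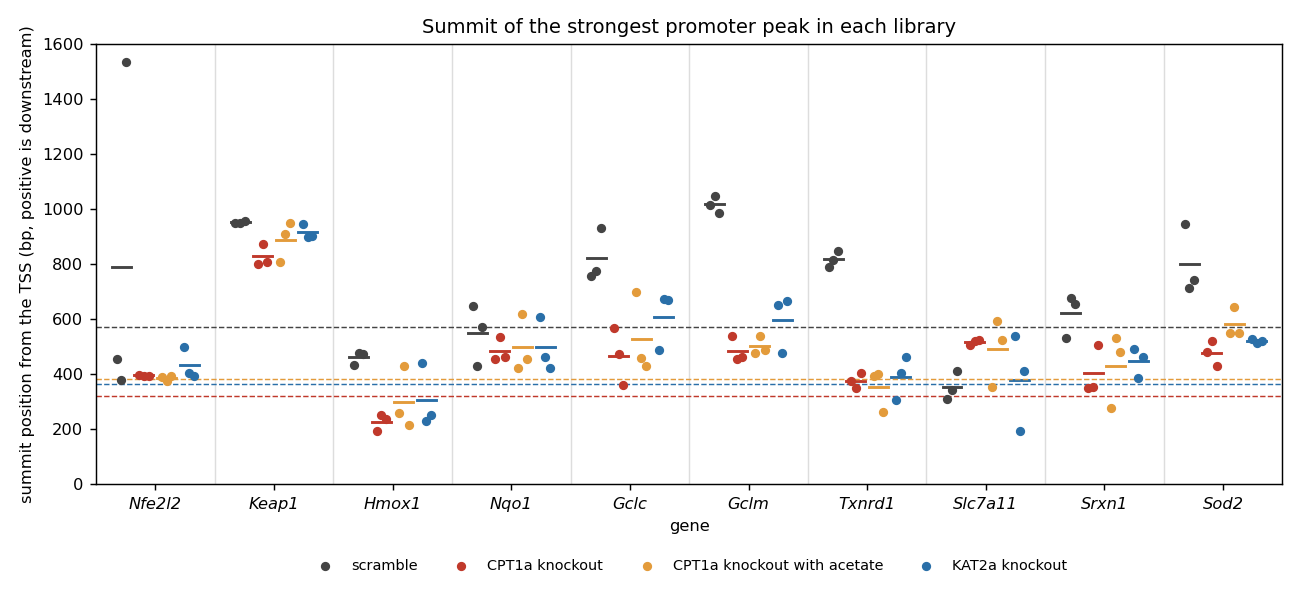
Position of the summit of the strongest promoter peak relative to the TSS (vertical axis, bp, positive downstream) for the 10 genes, with a point for each library, bars at group means of 3 libraries, and dashed lines at the mean of the libraries' medians over all genes in each group. Scramble summits at Gclc, Gclm, Txnrd1 and Sod2 (714 to 1049 bp) lie beyond those of the other 9 libraries (261 to 700 bp).

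The highest point of the mark also sat further into the gene in the scramble libraries, a measure that was added after the peak lists had been seen. At Gclm the summit lay 1014, 1049 and 987 bp downstream of the TSS in the scramble libraries and 456 to 665 bp in the other 9. At Txnrd1 it lay at 791, 816 and 848 bp against 261 to 464 bp. Gclc (757 to 933 bp against 361 to 700 bp) and Sod2 (714 to 944 bp against 430 to 644 bp) gave the other members without overlap, with an exact permutation p of 0.00455 for each of the 4.

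These 4 of 10 compare with 41.5% of the 10057 genes that had all summits within 5 kb of the TSS. Past an adjusted p of 0.05 in the exact test were 6 of 10 members, the 4 named and Hmox1 and Srxn1, beside 52.3% of all genes. The scramble summit was the more downstream one at 9 of 10 members, with Slc7a11 as the exception (354 ± 52.5 bp against 463 ± 124 bp), and at 75.9% of all genes. The median shift was 234 bp over the members and 171 bp over all genes, and the member median was 178 bp without scramble replicate 3, whose Nfe2l2 summit lay at 1533 bp against 376 to 497 bp in the other libraries. The median summit over all genes was 549 to 597 bp in the scramble libraries and 318 to 384 bp in the others.

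Over the 12 libraries the genes with ranks most like that of Nfe2l2 were Zfp865 and Ccdc106, each with a Pearson r of 0.948 and with the same range of 14.7 to 98.4, and Plcb4 (r = 0.935). A peak that overlaps the promoters of several genes counts for each, so Zfp865 and Ccdc106 need not be separate observations. The genes most like Hmox1 were Il11ra1 (r = 0.834), Prpf19 (0.820) and Pigw (0.812). The values describe 12 libraries that share groups and depths, and the genes were picked from all those tested.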

How the data were processed

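The authors called peaks in each library separately and deposited 1 narrowPeak list per library, in which their peak caller gave each peak a fold enrichment (a ratio of pileup to background). The deposited lists also hold the -log10 p-value and -log10 q-value that the authors' peak caller computed for each peak. An integer score computed by the authors' peak caller from the q-value was deposited as well and not used. The submitters' processing notes name FastQC, Bowtie2, SAMtools, deepTools and MACS2 and the builds mm10 and dm6, while the study's methods name BWA as the aligner, and which of these made the lists is not given in the sources used here. The labels and the methods also give different catalogue numbers for the antibody. The 12 input libraries and the fly spike-in were not analysed here. The peak caller's -log10 p-values depend on depth, so fold enrichment was ranked.

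The members and lists were chosen with earlier results of these data known. All 10 members are named. From the wider list, values are printed in each comparison for up to 2 genes in each direction with the smallest adjusted p among those that passed. Promoters reached 1000 bp to each side of every TSS that GENCODE vM21 gives a protein-coding gene, and took the overlapping peak (1 bp or more) of highest fold enrichment. Ranks over the 10777 genes were turned into normal scores and fitted in limma 3.58.1 (R 4.3.3), with 4 groups in 1 fit and Benjamini-Hochberg adjustment over all genes. Beside it stand two-sided exact permutation tests of group means (20 assignments for 3 against 3 libraries, 220 for 3 against 9), which alone served for widths and summits. The fit was tested on simulated ranks of 10777 genes made like the CPT1a knockout against the scramble, where it recovered 25% of genes shifted by 1 normal score and 75% of those shifted by 2, 100 of each, with 11 false calls in all. Values away from promoters and summit positions were chosen after seeing the data. Genome letters came from the RefSeq copy of GRCm38, which is mm10, read with pyfaidx 0.9.0.4. Alternatives were ranking by -log10 p, ranking among all peaks, removal of the GC trend, lists of equal length, a common calling depth of 0.55, a window of 500 bp, protein_coding transcripts only, the replicate number as a block, merging of peaks less than 500 bp apart, a -log10 q of at least 5, and leaving out each library.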

Additional observations from a re-analysis of the deposited data

How the results depend on the processing

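Over 14 to 20 alternatives for each member and comparison, 0 of the calls changed direction. Among the members only Gclc had calls in the main setting, and differences that did not pass were less stable. Against the scramble, Nfe2l2 in the KAT2a knockout and Hmox1 in the CPT1a knockout each changed sign in 5 of 14 alternatives. For acetate against no acetate, Hmox1 did so in 6 and Gclm in 5. Slc7a11 changed sign in 0 alternatives of every comparison. Of 760 values, 706 kept their side of the threshold or moved by less than 1 SD, 32 moved further, 19 passed where they had not, and 3 lost a call. Of 178 values for the calls of the wider list that are printed with an adjusted p, 46 lost the call. Ranking by -log10 p, which depends on depth, called more members: 5 in the CPT1a knockout, 4 in the KAT2a knockout and 3 with acetate against the scramble, and 5 in the scramble against the other 9 libraries. It also called 3524, 2452, 2698 and 4000 genes in place of 1060, 397, 574 and 1385. Besides Gclc, the members called this way were Nfe2l2, Txnrd1, Slc7a11 and Srxn1 in the CPT1a knockout. In the KAT2a knockout they were Nqo1, Gclm and Slc7a11, and with acetate Nfe2l2 and Txnrd1. For the scramble against the other 9 libraries they were Nfe2l2, Gclm, Txnrd1 and Slc7a11. Ranking among all peaks called 2, 1 and 2 members in the CPT1a knockout, the KAT2a knockout and the scramble against the other libraries. The same setting called 1910, 380 and 1779 of the 10777 genes in these comparisons. Leaving out 1 library gave 1 to 2 members in the CPT1a knockout, 0 to 1 in the KAT2a knockout, 0 to 1 with acetate against the scramble and 1 to 3 in the scramble against the other 9 libraries, and 0 to 0 for acetate against no acetate. Over all genes, leaving out 1 library called 407 to 1121 in the CPT1a knockout and 36 to 496 in the KAT2a knockout. The range was 124 to 695 with acetate against the scramble and 423 to 1500 in the scramble against the other 9 libraries. It was 0 to 9 for acetate against no acetate. Against the scramble, the CPT1a knockout called 448 without scramble replicate 1 and 407 without scramble replicate 3. The KAT2a knockout called 36 and 52, and the acetate group 124 and 166, in the same order. The causes were not tested.

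The median rank difference of the members kept within 1 SD under every alternative. Without 1 library it was -10.1 to -2.79 percentile points in the CPT1a knockout, -14.1 to -7.57 in the KAT2a knockout and -4.36 to 0.358 with acetate, each against the scramble. It was 2.58 to 7.84 for acetate against no acetate and 2.46 to 5.99 for the scramble against the other 9 libraries. Merging peaks less than 500 bp apart widened the scramble peaks most, so that the median width difference of the members against the scramble became -944 bp (CPT1a knockout, from -366 bp), -824 bp (KAT2a knockout, from -297 bp) and -742 bp (acetate, from -303 bp), and 825 bp for the scramble against the others. Without 1 library these ranges were -542 to -261 bp, -373 to -9.17 bp (the last without scramble replicate 1), -439 to -227 bp and 278 to 472 bp, and -92.8 to 185 bp for acetate against no acetate. The median summit shift of the members was 178 to 243 bp, the lowest without scramble replicate 3. All 10 members kept a peak in all 12 libraries at a -log10 q of at least 5, in lists of equal length, with a 500 bp window and with protein_coding transcripts only.

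With the replicate block 1, 0, 0, 1 and 1 members passed in the order of the 5 comparisons above, and 883, 284, 0, 431 and 1235 genes. Libraries with the same number did not deviate together (r of -0.0630 to 0.0595 over 18 pairs), and 2 of 12 libraries correlated best with their own number, so the number is no pairing. The lists carry no read depth, and with 3 libraries a group the fit recovered few small shifts.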
